A study of Mus musculus with 19 samples.

Results

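This report concerns 10 genes of extracellular proteolysis in mouse retinal microglia, taken as a family by name, with earlier results of these data known, among 27299 genes in the table. They are 5 matrix metalloproteinases (*Mmp2*, *Mmp9*, *Mmp12*, *Mmp14* and *Mmp19*), 3 ADAM sheddases (*Adam8*, *Adam10* and *Adam17*) and 2 tissue inhibitors of metalloproteinases (*Timp1* and *Timp3*). All 10 were found in the table. RNA was sequenced in bulk from 12 samples of sorted CD45+CD11b+CX3CR1+Ly6C-Ly6G- retinal cells of 8 weeks old C57BL/6J mice, and the study's methods give Cx3cr1 GFP/+ mice on that background, in which 1 *Cx3cr1* allele carries GFP in both groups, and a gate on cells low in CD45. The 6 CNV d3 samples came from eyes that had received an argon laser 3 days before, with 6 burns per eye, a model in which the rupture of the membrane under the pigment epithelium is followed by choroidal neovascularization (CNV). The 6 control samples came from eyes without laser, and only the central retina was used in both groups. The labels do not say how mice map to samples, so the p-values measure the spread between these samples, which may be technical in part.

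Matrix metalloproteinases are zinc enzymes that cut collagens, elastin, fibronectin and other matrix proteins. They are made as inactive proforms, and most are secreted, while MMP14 is anchored in the plasma membrane and activates proMMP2 there. ADAMs are membrane proteases that release the extracellular part of cytokines, receptors and adhesion molecules from the cell surface. ADAM17 is the main sheddase of tumor necrosis factor, and ADAM10 starts the cleavage of Notch receptors. TIMPs are secreted proteins that bind and block the active site of metalloproteinases. In the eye, new choroidal vessels cross Bruch's membrane, a sheet of basement membranes, collagen and elastin, and microglia and macrophages are among the known sources of these enzymes.

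Values are normalized counts, that is read counts divided by a size factor of the sample. Between 10963178 and 22335233 reads on genes lay behind the control samples and between 23532260 and 29523018 behind the CNV d3 samples, and 1 read was worth 0.739 to 1.99 normalized counts. The controls were the shallower group, so a gene at 0 was less well limited there: 3 reads, taken here as the floor that a count of 0 allows, equal 3.01 to 5.96 normalized counts in a control and 2.22 to 2.68 in a CNV d3 sample. These limits cover counting error only. The controls also had fewer genes with reads, 15076 to 17224 against 18276 to 19116 in CNV d3, and this held at a like depth: control replicate 5 had 22335233 reads on 15215 genes and CNV d3 replicate 3 had 23532260 reads on 18276. The part of this difference in the genes at 0 in control was not tested. The labels list all 6 controls, but of the CNV d3 samples only replicate 4, in 2 parts. This layout thus went with the group, and its part in the depth and the genes with reads was not tested. The sorted cells had high levels of microglia genes in every sample. The sum over 9 markers was 1272600 to 1417600 normalized counts in control and 719280 to 1068300 in CNV d3, where 6 of the 9 decreased. A gene is counted here as increased or decreased at a limma adjusted p under 0.05. Of all genes, 8.29% increased and 4.57% decreased. A list of 12 monocyte and macrophage genes summed to 898 to 1396 in control and 5847 to 52170 in CNV d3 (7 of 12 increased). Most of the CNV d3 sum was *Fn1*, with means of 22.1 in control and 19206 in CNV d3. The study reports *Fn1* among its top increased genes of CNV-associated microglia. Much of the control sum was *Thbs1*, with a control mean of 702. For a list of 8 dendritic cell genes the sums were 836 to 1734 and 1820 to 4131 (5 of 8 increased). *Ly6c2*, which encodes the antigen gated out, was at 0 in all controls and at 1.73 to 25.1 in CNV d3, while the neutrophil marker *Ly6g* was not found in the table and 7 other neutrophil genes summed to at most 26.4 in any sample. None of the neutrophil, photoreceptor, pigment epithelium, lymphocyte, or fibroblast and mural cell genes passed the test; of the border macrophage genes 2 of 7 increased, of the Mueller cell and astrocyte genes 3 of 8 increased and 1 decreased, and of the endothelial genes 1 increased and 1 decreased. In bulk samples, fewer cells of a type and less RNA per cell cannot be told apart.

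The start regions of 3 of the genes are printed here because *Mmp14* and *Adam8* separated the groups in all samples, and because *Mmp12* held the only motif matches. RefSeq promoter windows (GRCm38.p6, 250 bases before and 50 after the start, 5′ to 3′ on the strand of the gene) were at hand for 7 of the 10 genes. They were searched on both strands for the AP-1 motif TGANTCA and for the PU.1 motif GAGGAAGT, which do not overlap each other in these windows. AP-1 and PU.1 are transcription factors of activated and of myeloid cells, respectively. A match is shown in capitals. *Mmp12* has 2 listed starts. The window of the first, chr9:7344147-7344446 on the plus strand, holds the PU.1 motif in the minus orientation with its first base at position -88 relative to the start, and the window of the second, chr9:7347124-7347423, holds the AP-1 motif with its first base at position -44. The windows of *Mmp14* (chr14:54431348-54431647, plus strand) and of *Adam8* (chr7:139992513-139992812, minus strand) hold neither, nor do those of *Adam10*, *Adam17*, *Timp1* and *Timp3*. Among all 32851 windows of this length, 7.81% hold the AP-1 motif and 3.20% the PU.1 motif.
Mmp12, first start: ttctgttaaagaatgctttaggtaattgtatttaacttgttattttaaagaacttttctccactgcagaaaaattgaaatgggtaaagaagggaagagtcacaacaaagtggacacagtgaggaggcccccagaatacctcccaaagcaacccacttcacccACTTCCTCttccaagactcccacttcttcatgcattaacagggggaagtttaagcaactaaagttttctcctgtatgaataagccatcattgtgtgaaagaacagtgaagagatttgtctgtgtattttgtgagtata
Mmp12, second start: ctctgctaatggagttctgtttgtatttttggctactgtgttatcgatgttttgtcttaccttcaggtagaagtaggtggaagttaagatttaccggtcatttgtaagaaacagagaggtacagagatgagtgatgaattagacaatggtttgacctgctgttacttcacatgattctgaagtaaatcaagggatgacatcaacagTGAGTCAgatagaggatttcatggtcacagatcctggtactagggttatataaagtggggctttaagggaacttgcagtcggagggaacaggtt
Mmp14: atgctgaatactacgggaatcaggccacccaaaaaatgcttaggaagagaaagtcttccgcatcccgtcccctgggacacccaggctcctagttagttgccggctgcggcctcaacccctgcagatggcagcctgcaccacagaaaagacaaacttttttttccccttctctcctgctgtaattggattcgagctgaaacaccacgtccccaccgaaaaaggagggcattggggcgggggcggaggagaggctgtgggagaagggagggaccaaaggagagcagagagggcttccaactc
Adam8: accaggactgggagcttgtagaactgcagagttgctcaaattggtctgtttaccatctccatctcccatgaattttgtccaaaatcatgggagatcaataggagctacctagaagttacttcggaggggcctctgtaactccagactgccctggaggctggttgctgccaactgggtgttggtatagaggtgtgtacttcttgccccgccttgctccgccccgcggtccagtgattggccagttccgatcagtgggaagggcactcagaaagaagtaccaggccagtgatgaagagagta

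After laser, 5 of the 10 genes increased in the sorted microglia (*Mmp2*, *Mmp9*, *Mmp14*, *Adam8* and *Adam17*) and none decreased. By the thresholds used here, a gene increased or decreased when its limma adjusted p was under 0.05, and was a DEG when the log2 difference was also beyond 1.5. Of all 27299 genes, 8.29% increased and 4.57% decreased, and 3.91% were increased and 1.07% decreased DEG. *Adam8* and *Mmp9* were the DEG among the 10 genes. For 3 genes (*Mmp2*, *Mmp14* and *Adam8*) every CNV d3 sample was above every control sample, and for none was every sample below, while of all genes 4.64% lay wholly higher and 2.83% wholly lower. No gene of the 10 had an unadjusted p under 0.05 for a decrease, and edgeR and DESeq2 called 0 decreases among them too. The median log2 difference of the 10 genes was 1.17, or 0.80 with *Mmp9* and *Timp1*, which were at 0 in all controls, set against 3 reads in the shallowest control, beside 0.15 over all genes and 0.08 over the 10756 genes with a mean of at least 50 normalized counts.

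**Figure D1:**
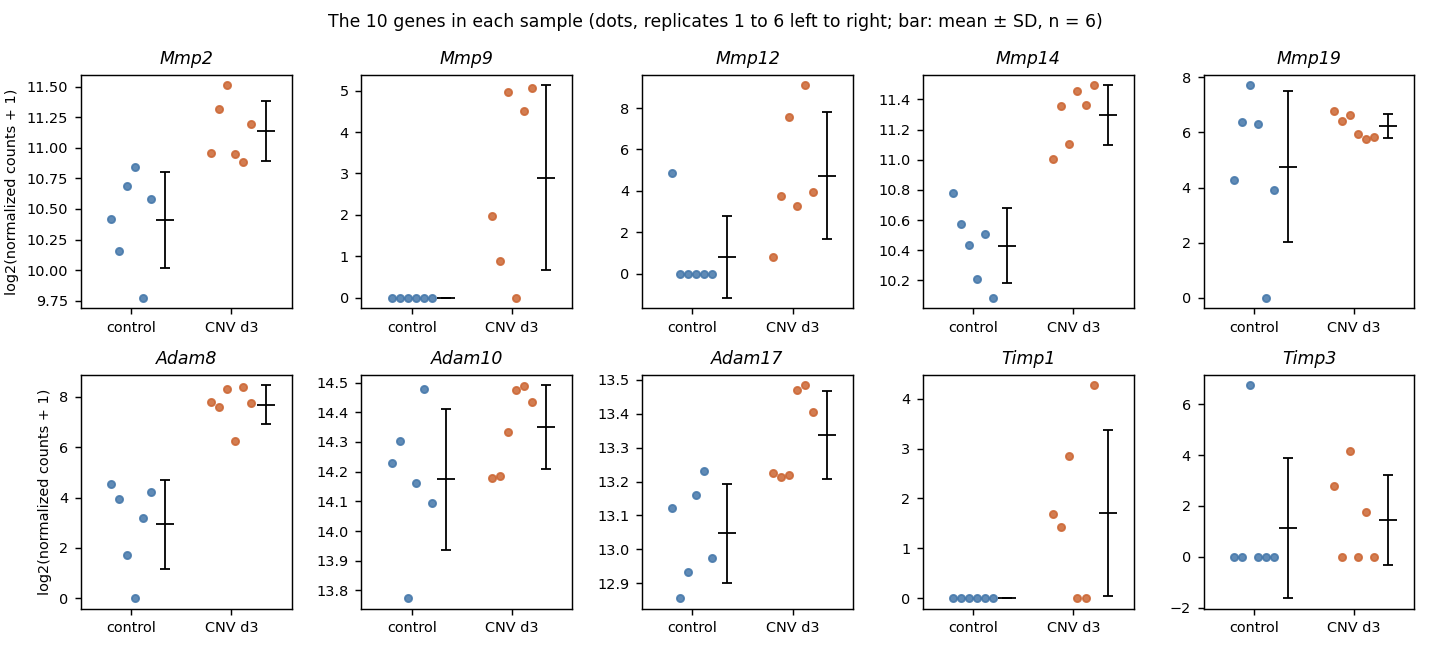
Each panel shows 1 gene, with log2(normalized counts + 1) on the y axis, which does not start at 0 for the high genes, and the 6 control (blue) and 6 CNV d3 samples (orange) as dots, beside mean ± SD. The groups are apart for *Mmp2*, *Mmp14* and *Adam8*, and *Mmp9* and *Timp1* are at 0 in all 6 controls.

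*Mmp14* (GRCm38, chr14:54431612-54445364, plus strand), the membrane type enzyme that cuts fibrillar collagen and activates proMMP2, had a lowest value of 1084, a median of 1418 and a highest value of 1753 normalized counts in control. In CNV d3 the lowest was 2049, the median 2628 and the highest 2884. Thus all 6 CNV d3 samples were above all controls. The mean rose from 1396 ± 240 to 2533 ± 335 (SD, n = 6 each), a ratio of 1.81, with a log2 difference of 0.87 ± 0.13 (SE) and a limma adjusted p of 0.000551. Among the 924 ways to label the samples, none gave a larger difference than the true labels and their mirror image (two-sided exact permutation test, p = 0.00216, the smallest this design allows). The increase of *Mmp14* passed the test in every alternative tried, with log2 differences of 0.80 to 0.93.

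*Mmp2* (chr8:92827291-92853420, plus strand), gelatinase A, which cuts the type IV collagen of basement membranes and is the substrate of MMP14, lay between 873 and 1833 with a median of 1449 normalized counts in control. The CNV d3 samples lay between 1895 and 2925 with a median of 2168. The groups did not overlap, but the gap between the highest control (1833) and the lowest CNV d3 sample (1895) was small beside the spread within the groups. The mean rose from 1400 ± 351 to 2281 ± 405 (SD, n = 6 each), a ratio of 1.63, with a log2 difference of 0.73 ± 0.17 (SE, limma adjusted p = 0.0118) and a two-sided exact permutation p of 0.00216. When 1 sample was left out at a time, the log2 difference was 0.60 to 0.81 and the call was kept in all 12 fits. Exons of *Mmp2* and *Mmp14* overlap no other annotated gene.

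*Mmp9* (chr2:164940780-164955850, plus strand), gelatinase B, known as an inducible enzyme of leukocytes, had no read in any of the 6 controls. In CNV d3 it was at 2.96, 0.836, 30.4, 0, 21.6 and 32.4 normalized counts in replicates 1 to 6, which rest on 105 reads in all. So 3 samples were over 20, and the other 3 were near the floor or at 0. The CNV d3 mean of 14.7 ± 15.2 (SD, n = 6) was at least 2.47-fold higher than 3 reads in the shallowest control. The fitted log2 difference was 2.90 ± 0.85 (SE, limma adjusted p = 0.0354), and the two-sided exact permutation p was 0.0152. This call rests on few reads and single samples: the adjusted p was between 0.0136 and 0.0978 when 1 sample was left out, and the call was kept only without CNV d3 replicate 2 or 4. With all samples thinned to the depth of the shallowest control, the adjusted p was 0.0728.

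*Mmp12* (chr9:7344381-7369499, plus strand), the macrophage elastase, was at 0 in 5 controls and at 27.9 normalized counts in control replicate 1. In CNV d3 the values were 0.739, 12.5, 190, 8.66, 550 and 14.1 in replicates 1 to 6. All 6 CNV d3 samples thus held reads, but only 2 of them were above the highest control. The mean was 4.65 ± 11.4 in control and 129 ± 219 in CNV d3 (SD, n = 6 each), and replicates 3 and 5 carried most of the latter. The log2 difference of 3.93 ± 1.35 (SE) did not pass the test (limma adjusted p = 0.0729), although it was the second largest of the 10 genes in this fit. The two-sided exact permutation p was 0.0433. *Mmp12* passed the test without control replicate 1 (adjusted p = 0.0375), without CNV d3 replicate 1 (0.0418) and with limma voom on the recovered reads (0.0351), and was at most at 0.188 in the other fits. Its exons share 157 bases with *Mmp1b* on the other strand, a gene not found in the table.

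*Mmp19* (chr10:128790910-128800824, plus strand), which cuts components of basement membranes, ranged from 0 to 209 normalized counts with a median of 48.2 in control. In CNV d3 it ranged from 53.7 to 108 with a median of 72.5. The CNV d3 samples lay wholly within the control range, and the controls were far more spread. The means of 67.1 ± 77.9 and 77.1 ± 23.4 (SD, n = 6 each) gave a log2 difference of 1.47 ± 1.00 (SE, limma adjusted p = 0.404), and edgeR gave 0.21 on the recovered reads. Of its exon bases, 28.3% overlap *Gm47093* or *Tmem198b* on the other strand. Counting at the default setting uses no strand and leaves out reads that overlap more than 1 gene. Levels per kb, which divide by all exon bases, may thus be too low for genes with such overlaps.

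*Adam8* (chr7:139978932-139992562, minus strand), a sheddase of myeloid cells that cuts adhesion molecules, had the largest difference of the 10 genes in the limma fit. The controls lay between 0 and 22.5 normalized counts with a median of 11.1. The CNV d3 samples lay between 74.4 and 333 with a median of 218. Even the lowest CNV d3 sample, replicate 4, was thus above the highest control. The mean rose from 10.8 ± 8.91 to 226 ± 93.4 (SD, n = 6 each), a ratio of 20.9, with a log2 difference of 4.75 ± 0.75 (SE, limma adjusted p = 0.000719) and a two-sided exact permutation p of 0.00216. It rests on 54 reads in control and 1648 in CNV d3. The call held in every alternative, with log2 differences of 3.97 to 5.08.

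*Adam17* (chr12:21323509-21373632, minus strand), the sheddase of tumor necrosis factor and its receptors, lay between 7412 and 9621 with a median of 8485 normalized counts in control. In CNV d3 it lay between 9506 and 11453 with a median of 10211. Replicates 4, 5 and 6 of CNV d3 were above the highest control, and replicates 1, 2 and 3 were just below it, so the groups overlapped at their edges. The mean rose from 8497 ± 862 to 10376 ± 939 (SD, n = 6 each), with a log2 difference of 0.29 ± 0.09 (SE, limma adjusted p = 0.0365) and a two-sided exact permutation p of 0.00866. This difference was small and near the threshold: the call was lost without control replicate 2, 3 or 6 or CNV d3 replicate 4, 5 or 6 (adjusted p = 0.0626 to 0.075), and with no variance trend in limma (0.182), while its size stayed between 0.25 and 0.33. *Adam17* shares 311 exon bases with *Iah1* on the other strand.

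*Adam10* (chr9:70678997-70780229, plus strand), the sheddase of Notch and of the amyloid precursor protein, was the highest of the 10 genes in both groups. It lay between 14005 and 22848 with a median of 18783 normalized counts in control and between 18537 and 23010 with a median of 21383 in CNV d3. The ranges overlapped widely. The log2 difference of 0.18 ± 0.10 (SE) between 18685 ± 2945 and 20958 ± 2016 (SD, n = 6 each) did not pass the test (limma adjusted p = 0.333). Control replicate 3, with 14005, was the lowest sample.

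The inhibitors among the 10 genes were near the floor. *Timp1* (chrX:20870166-20874735, plus strand, within an intron of *Syn1* on the other strand), which inhibits MMP9 and other soluble metalloproteinases, had no read in any control. In CNV d3 it was between 0 and 18.3 normalized counts with a median of 1.94, from 34 reads in all. The mean of 4.74 ± 7.02 (SD, n = 6) was under the floor of the shallowest control, so no fold is given, and the log2 difference of 1.71 ± 0.62 (SE) did not pass the test (limma adjusted p = 0.0917). *Timp3* (chr10:86300372-86349506, plus strand), the matrix-bound inhibitor that also blocks ADAM17 and ADAM10, was at 0 in 5 controls and at 105.8 in control replicate 3. In CNV d3 it was between 0 and 17.0 with a median of 1.20. A single control sample thus held most of its reads, 94 of which were in control and 30 in CNV d3. The log2 difference was 0.33 ± 1.16 (SE, limma adjusted p = 0.862), and its sign turned with the method, with -2.03 by edgeR and -2.07 by DESeq2. Of its exon bases, 21.3% overlap *Syn3* on the other strand.

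**Figure D2:**
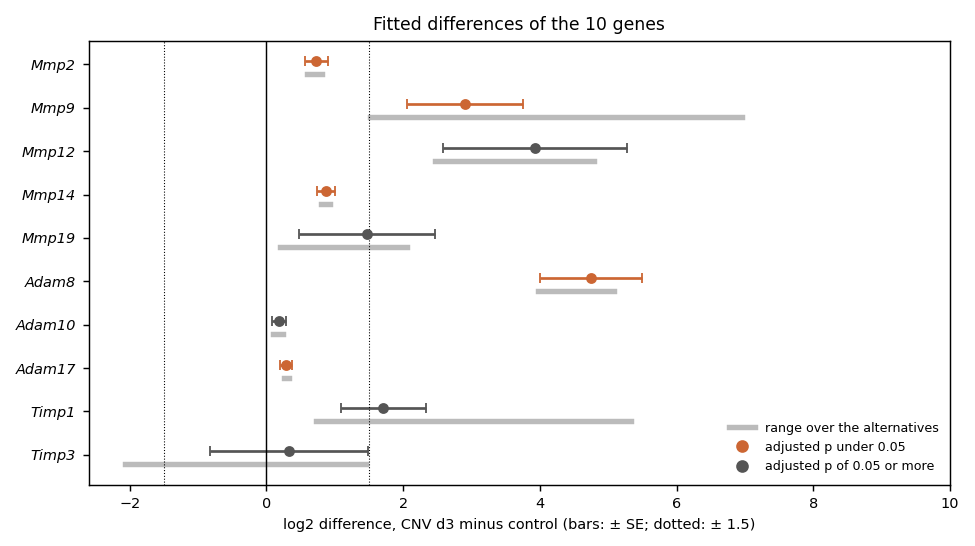
Log2 difference between CNV d3 and control for each of the 10 genes, with the limma estimate ± SE as a dot (orange where the adjusted p was under 0.05) and the range over all alternatives as a grey bar. The bars of *Mmp2*, *Mmp14*, *Adam10* and *Adam17* are narrow, those of *Mmp9* and *Timp1* wide, and that of *Timp3* reaches from -2.07 to 1.45.

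Between genes, levels were compared per kb of merged exons. In control the order was *Adam10* with a mean of 3803 ± 600 normalized counts per kb, *Adam17* with 1188 ± 120, *Mmp2* with 415 ± 104 and *Mmp14* with 234 ± 40.3 (SD, n = 6 each). The ranges of *Mmp2* and *Mmp14* overlapped in control, although *Mmp2* was the higher of both within all 6 samples, and the other neighbours among these 4 genes did not overlap. *Mmp19* followed with 19.0 ± 22.1 per kb, and *Adam8*, *Timp3*, *Mmp12*, *Mmp9* and *Timp1* had means of 0 to 2.33 per kb, whose order is within their spread. In CNV d3 the first 4 were in the same order, with 4266 ± 410, 1450 ± 131, 677 ± 120 and 425 ± 56.3 per kb, and none of these neighbours overlapped. *Adam8* came next with 48.7 ± 20.1 per kb, above *Mmp19* with 21.8 ± 6.63 in 5 of the 6 samples, with ranges that overlapped. *Mmp12*, *Timp1*, *Mmp9* and *Timp3* had means of 17.9, 5.34, 4.16 and 0.518 per kb and overlapped each other.

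As a share of the per kb sum of the 10 genes within a sample, *Adam10* took 66.8% ± 4.28 in control and 61.6% ± 1.44 in CNV d3, and *Adam17* 21.04% ± 1.73 and 20.98% ± 0.931 (SD, n = 6 each). *Mmp2* took 7.51% ± 2.38 and 9.85% ± 2.01, and *Mmp14* 4.16% ± 0.719 and 6.14% ± 0.607. The remaining 6 genes took less than 1% each in both groups on average. Most of the message of these genes thus came from *Adam10* and *Adam17* in both groups.

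**Figure D3:**
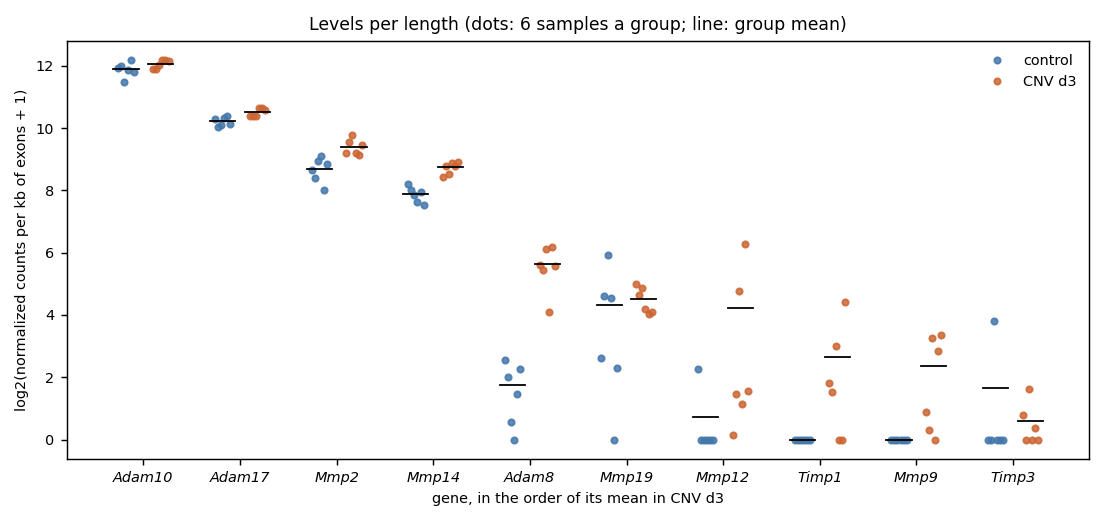
Levels of the 10 genes as log2(normalized counts per kb of merged exons + 1), with 6 control (blue) and 6 CNV d3 (orange) samples as dots and the group mean as a line. *Adam10* and *Adam17* are highest in both groups, and *Adam8* passes from a mean of 2.33 per kb in control to 48.7 per kb in CNV d3.

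The 6 CNV d3 samples differed among themselves in the low genes. *Mmp9* was over 20 normalized counts in replicates 3, 5 and 6, and *Mmp12* was highest in replicates 3 and 5. *Adam8* was also highest in replicates 5 and 3, with 333 and 316, and lowest in replicate 4 with 74.4, where *Mmp9* was at 0. *Timp1* was at 0 in both replicate 4 and replicate 5. The sum of the 12 monocyte and macrophage genes was 5847, 19589, 52170, 6311, 13485 and 38388 normalized counts in replicates 1 to 6, and *Fn1* made up most of it. Replicates 1 and 4, the lowest in this list, had *Mmp12* at 0.739 and 8.66 and *Mmp9* at 2.96 and 0. Since *Fn1* set most of this sum, its order cannot stand for that of the other genes of the list. Replicate 5, the third lowest in the sum, had the highest *Mmp12* (550). Replicate 6, the second highest, had *Mmp12* at 14.1, and replicate 2 had *Mmp9* at 0.836. Single genes of the list, looked at after the values were seen, differed in order. *Ccr2* was at 120, 278, 1162, 163, 910 and 1351 in replicates 1 to 6, highest in the 3 replicates with *Mmp9* over 20. *S100a4* was also highest in replicates 3, 5 and 6 (115, 50.5 and 66.5), as was *Ahnak* (126, 83.3 and 298). *Fn1*, *Plac8* and *Ly6c2* were higher in replicate 2 (16586, 520 and 15.9) than in replicate 5 (9895, 503 and 7.21). These 6 genes are the DEG of the list. The sum of the 8 dendritic cell genes was 1820, 2510, 4131, 2155, 2615 and 3418 in replicates 1 to 6. The gate on low CD45 and on Ly6C-negative cells would remove monocytes with high CD45 or Ly6C, and the part of such cells in the values of *Adam8*, *Mmp9* and *Mmp12* was not tested. The values of *Mmp2* varied less, with a coefficient of variation of 17.8% in CNV d3 and 25.1% in control, against 103% for *Mmp9* and 169% for *Mmp12* in CNV d3.

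**Figure D4:**
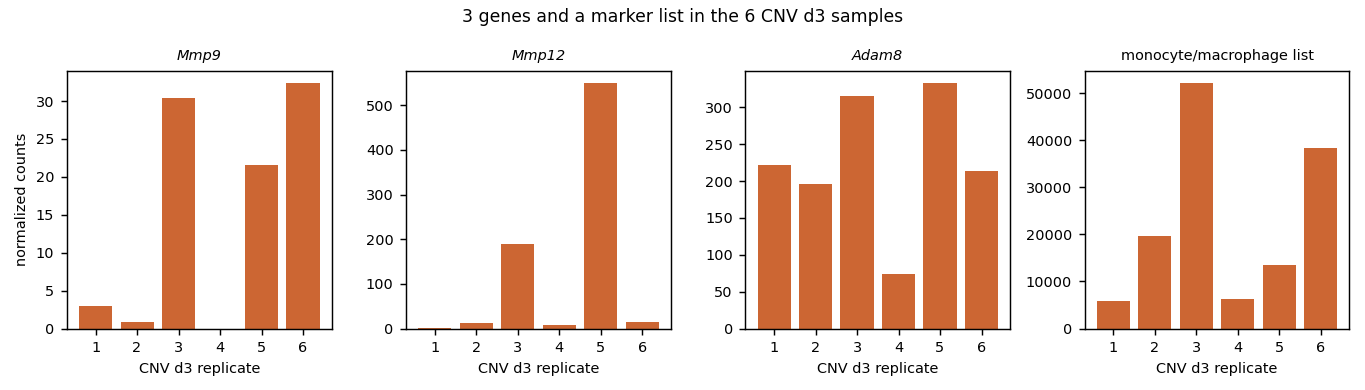
Normalized counts of *Mmp9*, *Mmp12* and *Adam8* and the summed normalized counts of 12 monocyte and macrophage genes in each of the 6 CNV d3 samples (bars, from 0, 1 sample each). *Mmp9* is over 20 in replicates 3, 5 and 6, *Mmp12* is at 550 in replicate 5, and *Adam8* is at least at 74.4 in all 6.

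The genes whose values followed those of a called gene most closely were sought among the 10756 genes with a mean of at least 50, by Pearson's r of log2(normalized counts + 1) over the 12 samples after the group means were taken off. For *Adam8* they were *Acsl3* (r = 0.95), *Mdc1* (0.94) and *Mcemp1* (0.93), and for *Mmp14* *Vps13a* (0.92), *Ap5z1* (0.91) and *Znfx1* (0.88). For *Mmp2* they were *1700025G04Rik* (0.93), *Urod* (0.93) and *Ammecr1l* (0.92), and for *Adam17* *Mia3* (0.91), *Mob1a* (0.89) and *Pdk1* (0.83). For *Mmp9* they were *Ttk* (0.87), *Psmd1* (0.86) and *Polq* (0.85). These are descriptions over 12 samples, picked as the highest among many genes, and the values of all genes in a sample share its library and depth. *Mmp9* was at 0 in all 6 controls, so its r rests on the 6 CNV d3 samples, with 105 reads in all. The control values of *Adam8* rest on 54 reads.

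The rest of the families was read from a list of 71 further metalloproteinase, ADAM, ADAMTS and inhibitor genes, of which 48 were in the table, and only 16 of these had a mean of at least 10 normalized counts. Of the 48, 3 increased (*Adam9*, *Mmp25* and *Adam33*) and 1 decreased (*Adamts16*), and their median log2 difference was 0.24. These are 6.25% and 2.08% of the 48, beside 8.29% and 4.57% of all genes. *Adam9*, a sheddase related to ADAM10 and ADAM17, lay between 946 and 2231 normalized counts in control and between 3359 and 5259 in CNV d3. The groups were apart, and the log2 difference was 1.30 ± 0.19 (SE, limma adjusted p = 0.000401). *Mmp25*, a membrane-anchored enzyme known from leukocytes, lay between 0 and 76.9 in control and between 123 and 351 in CNV d3, also apart, with a log2 difference of 3.80 ± 1.09 (SE, limma adjusted p = 0.0321). Its call was kept in 3 of 12 fits that left out a sample, namely without control replicate 2, 4 or 5 (adjusted p over all 12 fits 0.0388 to 0.116). The call of *Mmp25* was lost by edgeR (log2 difference 2.46, adjusted p = 0.0539) and with no variance trend in limma (adjusted p = 0.0609). DESeq2 kept it, with a log2 difference of 2.47 (adjusted p = 0.0129). *Adam33* was low, with means of 3.93 and 13.5 and a log2 difference of 2.77 ± 0.85 (SE, limma adjusted p = 0.0452), a call that held only without control replicate 1 when single samples were left out and was lost by edgeR and DESeq2 (log2 differences of 1.75 and 1.76, adjusted p = 0.367 and 0.348). *Adamts16*, a secreted protease, fell from 445 ± 55.2 to 161 ± 49.6 normalized counts (SD, n = 6 each) with groups apart. Its log2 difference of -1.499 ± 0.216 (SE, limma adjusted p = 0.000375) just missed the DEG threshold.

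Of the other relatives with the highest means, *Adam15* had 4437 and 5532 normalized counts in control and CNV d3 (limma adjusted p = 0.082) and *Adam3* 214 and 141 (0.223). *Adamts1* and *Adamts10* had 569 and 450 and 101 and 167 (0.956 and 0.155), and *Mmp11* and *Mmp28* had 55.7 and 35.9 and 51.7 and 12.8 (0.987 and 0.521). *Timp2*, which inhibits MMP2 and also bridges proMMP2 to MMP14, was the inhibitor with the highest level. It lay between 21631 and 27527 in control and between 18568 and 22712 in CNV d3, with a log2 difference of -0.21 ± 0.07 (SE) that did not pass the test (limma adjusted p = 0.0755). Per kb its means of 6066 and 5232 were above those of *Adam10*, whereas the group means of *Timp1* and *Timp3* were at most 5.34 per kb. *Reck*, a membrane-anchored inhibitor, had means of 123 and 94.9 (limma adjusted p = 0.728).

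**Figure D5:**
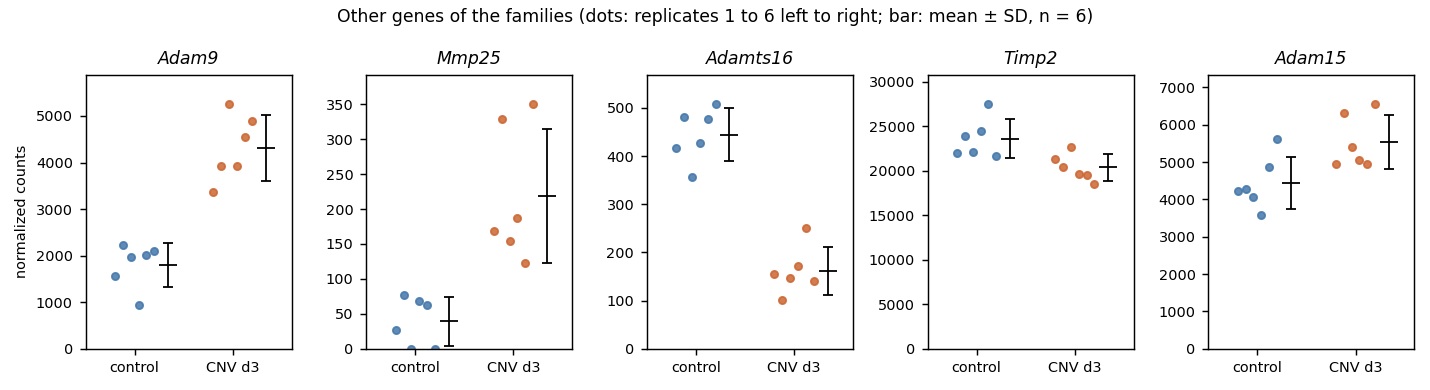
Normalized counts, from 0, of 5 other genes of the families in the 6 control (blue) and 6 CNV d3 (orange) samples as dots, beside mean ± SD. *Adam9* and *Mmp25* are higher and *Adamts16* is lower in all CNV d3 samples, while *Timp2* and *Adam15* overlap between the groups.

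Among 9 genes for proteins that carry or guide ADAM10 and ADAM17, 1 increased and 1 decreased, beside 8.29% and 4.57% of all genes. *Rhbdf2*, iRhom2, which brings ADAM17 to the cell surface, rose from 799 ± 188 to 1301 ± 296 normalized counts (SD, n = 6 each; log2 difference 0.71, limma adjusted p = 0.021). *Tspan14*, a tetraspanin partner of ADAM10, fell from 14583 ± 1237 to 11109 ± 1042 with groups apart (log2 difference -0.39, limma adjusted p = 0.00444). *Frmd8*, which stabilises the iRhom and ADAM17 complex, had means of 1840 and 2082 (adjusted p = 0.536).

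Among 8 genes listed for the activation or stabilisation of metalloproteinases, 3 increased and none decreased, beside 8.29% and 4.57% of all genes. *Furin*, the proprotein convertase that removes the prodomain of MMP14 and of ADAMs, rose from 1602 ± 348 to 2678 ± 184 (SD, n = 6 each) with groups apart (log2 difference 0.76, limma adjusted p = 0.00116). *Pcsk7*, another convertase, rose from 664 ± 141 to 918 ± 71.3 (log2 difference 0.49, adjusted p = 0.0452). *Lcn2*, lipocalin 2, which binds MMP9, was at 0 in all controls and between 0 and 19.2 in CNV d3 (log2 difference 2.84, adjusted p = 0.0125). *Bsg*, basigin, an inducer of metalloproteinases, had means of 11757 and 12577 (adjusted p = 0.47).

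Of 17 genes for known ADAM substrates, 5 increased and 4 decreased, beside 8.29% and 4.57% of all genes, and the median log2 difference of the list was -0.02. The genes named here beyond *Axl*, *Mertk*, *Csf1r* and *Cx3cl1* were picked after their values were seen. *Tnf*, the cytokine released by ADAM17, rose by a log2 difference of 1.35 (limma adjusted p = 0.0402), and *Axl*, a receptor for coated apoptotic cells, by 1.35 (8.2e-05). *App* rose by 0.63 (0.00419) and the hyaluronan receptor gene *Cd44* by 0.64 (0.0364). *Cx3cl1*, the ligand of CX3CR1, had no read in control and 2.22 to 54.8 normalized counts in CNV d3 (log2 difference 3.71, adjusted p = 0.00254). The receptor genes *Trem2* and *Mertk* fell by 0.76 and 0.50 on the log2 scale (adjusted p = 0.000741 and 0.0128), the receptor gene *Tnfrsf1a* fell by 0.33 (0.0439), and the growth factor gene *Tgfa* fell by 0.51 (0.0145). *Csf1r* had a log2 difference of -0.20 (adjusted p = 0.157).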

How the data were processed

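Bulk RNA-seq of 12 samples, 6 control and 6 CNV d3, was used. Per the labels and the study's methods, the authors made cDNA with the SMARTer v4 kit and Nextera XT libraries. They aligned single reads with STAR 2.7.2b to GRCm38.p6, counted them with featureCounts 1.6.4 at its default setting and normalized with DESeq2 1.22.2. The labels list 2 parts for 7 samples, all 6 controls and CNV d3 replicate 4, which are merged in the values. The study's methods give 2 merged files, 1 per flow cell, for each sample. The deposited signal is read counts divided by size factors. In all columns the values were whole multiples of 1 read within 0.01 reads, so reads were recovered and used in alternatives. Columns of the authors' means, fold changes and adjusted p-values were not used.

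limma 3.58.1 (R 4.3.3, variance trend) was fitted to log2(value + 1) over all 27299 genes with Benjamini-Hochberg adjustment. Log2 differences of low genes in this fit differed from those of edgeR in both directions. They were smaller for *Mmp9* and *Timp1* (2.90 and 1.71 against 6.95 and 5.33 by edgeR). They were larger for *Mmp19* and *Mmp25* (1.47 and 3.80 against 0.21 and 2.46 by edgeR). Exact permutation tests covered 924 labellings. The alternatives were edgeR 4.0.16, DESeq2 1.42.0 and limma voom on recovered reads, pseudocounts of 0.5 and 5, a filter of 10 in 6 samples, total or TMM scaling, thinning, no trend, a threshold of 0.01, a replicate block and leaving out each sample. Exon lengths and positions came from Gencode M21 (27238 of 27299 identifiers matched). The study's methods name a later Gencode version for the counting, so lengths and overlaps may differ in part from those behind the counts. The genes and lists were chosen with earlier results of these data known. Named were all 10 genes, the DEG and the 3 highest genes of each family or pathway list, and the 3 genes most like each called gene.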

Additional observations from a re-analysis of the deposited data

Results flagged for a closer look

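Of the 18 sets of 6 values tested for a sample far from the others, 5 held one by Dixon's test. Chance gives this in about 1 in 20 sets of normally distributed values, a rate that does not apply to sets made up mostly of zeros, where a single sample with reads passes by construction. *Mmp12* was at 27.9 normalized counts in control replicate 1 with the other controls at 0, and at 550 in CNV d3 replicate 5 with the next sample at 190. *Timp1* was at 18.3 in CNV d3 replicate 6 with the next at 6.26. *Timp3* was at 105.8 in control replicate 3 with the other controls at 0, and at 17.0 in CNV d3 replicate 3 with the next at 5.91.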

How the results depend on the processing

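The increases of *Mmp14* and *Adam8* passed the test in all 24 alternatives, that of *Mmp2* in all but the threshold of 0.01, and no decrease among the 10 genes was called in any. The count of 5 increased genes became 2 at an adjusted p under 0.01 and 3 to 5 when 1 sample was left out (3 without control replicate 2, 3 or 6 or CNV d3 replicate 5 or 6). The 2 increased DEG became 1 with a pseudocount of 5, the filter, thinning, the threshold of 0.01 or the replicate block, and 1 to 2 when 1 sample was left out. The filter kept 6 of the 10 genes and removed *Mmp9*, *Mmp12*, *Timp1* and *Timp3*. Of the other family genes, the 3 that increased became 1 by edgeR, 1 at the threshold of 0.01 and 1 to 3 when a sample was left out. Their count of 1 decreased gene became 3 by DESeq2, 4 by limma voom, 2 with the filter and 1 to 2 when a sample was left out. *Timp3* turned to a log2 difference of -2.03 by edgeR, -2.07 by DESeq2, -0.11 with a pseudocount of 5 and -0.04 after thinning, and lay between -0.21 and 1.45 when a sample was left out, being negative without CNV d3 replicate 3. Where no cause is named, the cause was not tested. Over scaling to total reads or by TMM, the median of all genes was 0.15.

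Same-numbered samples did not deviate together (r of deviations -0.046 to 0.064). This cannot show whether they were paired, since a shared origin need not leave a like deviation over many genes. With the numbers as a replicate block, 4 of the 10 genes increased and 1 of them was a DEG (adjusted p of *Mmp9* 0.05). The lower depth of the controls limits what can be said of *Mmp9*, *Mmp12*, *Timp1* and *Timp3*, which had 0, 26, 0 and 94 reads over all controls. The control level of *Adam8* also rests on few reads (54).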

Other observations

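Some ratios between genes within a sample were looked at after the values were seen, and are given without a test. Per kb, *Mmp14* was at 0.0389 ± 0.00764 of the level of *Timp2* in control and at 0.0822 ± 0.016 in CNV d3 (SD, n = 6 each), with ranges of 0.0316 to 0.0519 and 0.0627 to 0.102 that did not overlap. The ratio of *Mmp2* to *Timp2* was 0.0696 ± 0.02 and 0.129 ± 0.0192, also without overlap. The ratio of *Mmp14* to *Mmp2* overlapped between the groups, with 0.61 ± 0.231 and 0.646 ± 0.144. *Adam17* was at 0.317 ± 0.0449 of the level of *Adam10* in control and at 0.34 ± 0.0129 in CNV d3 with overlap, whereas *Adam9* was at 0.118 ± 0.0377 and 0.246 ± 0.0356 of it without overlap.

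Control replicate 3 was the lowest control for *Adam10* (14005) and the highest for *Mmp19* (209) and *Timp3* (105.8). It also had the highest sum of 7 border macrophage genes, 1734 beside 141 to 805 in the other controls, and of 8 photoreceptor genes, 6581 beside 711 to 1774. The part of such cells in these values was not tested.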
